A study of Mus musculus with 10 samples.

Results

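The genes of voltage-gated sodium and calcium channels were examined in RNA of mouse medulloblastoma (MB) models and of developing cerebella. Members were taken by a rule on their symbols, and the rule was chosen with earlier results of these data known. It covered pore-forming sodium channel subunits (Scn, a number and a) and sodium channel beta subunits (Scn, a number and b). It also covered pore-forming calcium channel subunits (Cacna1a to Cacna1s) and the calcium channel subunits named Cacna2d, Cacnb and Cacng. Of the 50559 genes counted, 40 matched. They comprise 10 sodium channel alpha subunits, 4 sodium channel beta subunits, 10 calcium channel alpha1 subunits, 4 alpha2delta subunits, 4 beta subunits and 8 gamma subunits. All 40 were detected well enough to be among the 29952 genes tested.

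RNA of 10 pieces of tissue, fixed in formalin and embedded in paraffin (FFPE), was analysed. The 4 MYC/SMARCA4 tumors had grown in CD1nu/nu mice, which lack mature T cells, after transplantation of granule cell precursors (GCPs) treated with a lentivirus that carries MYC. According to the study, these GCPs came from Math1-creERT2::Smarca4fl/fl pups given tamoxifen at P3, and they were grafted unsorted, so the graft could also hold GCPs that kept SMARCA4 or took up no virus. In the tumors that grew, the study found by staining that all tumor cells had lost SMARCA4, and by PCR that Smarca4 was recombined. GFP, which the virus also carries, stained strongly throughout. Host mice were 112, 96, 89 and 79 days old for tumors 1 to 4. The 3 P7 cerebella came from Math1-creERT2::Smarca4fl/fl mice aged 7 days. They had received tamoxifen (0.4 mg) at P3, so this control also carries the floxed Smarca4 alleles and the inducible Cre. The 3 SHH MB came from Math1-cre::Smofl/wt mice, labelled with an age of 7 days and with no treatment. Math1 directs Cre to GCPs, and cells of the cerebellum without active Cre keep their Smarca4 or Smo alleles unrecombined. Recombination after tamoxifen need not reach every GCP. Tumor RNA came from biopsy punches, which hold all cells in their area, whereas P7 cerebella were taken whole. Tumors of grown hosts were compared with tissue of 7-day-old pups, so the age of the tissue and the tumor genotype cannot be told apart. In such bulk samples, fewer cells of a type and less RNA per cell cannot be told apart either. Nothing states that the P7 and SHH MB libraries each came from a different mouse, so their p-values measure only the spread between these samples.

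Voltage-gated sodium channels open on depolarization and carry the upstroke of the action potential. Their alpha subunit forms the pore, and beta subunits adjust gating and act in cell adhesion. Voltage-gated calcium channels let calcium into the cell on depolarization, which triggers transmitter release and gene transcription. Their alpha1 subunit forms the pore, the intracellular beta subunit and the extracellular alpha2delta subunit bring it to the membrane, and most proteins of the gamma family serve AMPA-type glutamate receptors instead (transmembrane AMPA receptor regulatory proteins, TARPs). Neurons exchange subunits as they mature: Scn3a and Scn3b are typical of immature neurons, whereas Scn1a, Scn8a, Scn2b and Scn4b are typical of mature ones. In the cerebellum, granule cells and Purkinje cells both rely on Cacna1a, and Cacnb4 is the main beta subunit there.

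Myc was measured first to check the labels. Its level was 152, 368, 1590 and 1020 CPM (counts per 1e6 counts of a library, with library sizes scaled by TMM factors) in tumors 1 to 4, at most 14.3 in P7 cerebella, and between 33.7 and 45.7 in SHH MB. All tumors lay above all other libraries, with a log2 fold change of 5.85 ± 0.75 (SE) over P7 cerebella (adjusted p = 0.00194, quasi-likelihood test of edgeR). Smarca4 was at 208, 244, 136 and 238 CPM in the tumors, at 221, 282 and 259 CPM in P7 cerebella, and between 491 and 590 CPM in SHH MB. Its difference between tumors and P7 cerebella did not pass the test (log2 fold change -0.30 ± 0.28, adjusted p = 0.495). A count over the whole gene covers host cells and exons outside the deleted part, so it does not check the deletion.

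Libraries held between 5663491 and 9352109 counts. Pairs of tumors differed far more from each other than pairs within the other groups (chi-square per degree of freedom of 26.6 to 99.1 against 3.76 to 6.22). Mitochondrial transcripts took 6.36% of counts in tumor 1, between 2.29% and 2.94% in the other tumors, and at most 1.59% elsewhere. The cerebellar identity of the samples was checked with marker lists. Mature granule neuron markers had a mean log2 CPM of 9.04, 7.63, 4.69 and 6.85 in tumors 1 to 4, between 5.48 and 5.80 in P7 cerebella and between 4.36 and 4.50 in SHH MB. Markers of GCPs were at 4.89 in tumor 1, between 6.06 and 6.35 in tumors 2 to 4, between 6.86 and 7.04 in P7 cerebella and between 8.32 and 8.65 in SHH MB.

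Channel genes took between 0.406% and 0.438% of all counts in P7 cerebella and between 0.229% and 0.242% in SHH MB. In tumors 1 to 4 their share was 0.377%, 0.321%, 0.179% and 0.223%. By this share of raw counts, P7 cerebella lay above all other libraries, SHH MB formed a narrow band, and tumor 3 was lowest of the 10. On the TMM-scaled CPM scale used for all levels below, the order differed: channel genes summed to 6120, 4010, 1420 and 2550 CPM in tumors 1 to 4, to between 3530 and 3890 CPM in P7 cerebella and to between 2230 and 2290 CPM in SHH MB. On that scale tumors 1 and 2 lay above P7 cerebella, and tumor 3 was again lowest.

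**Figure D1:**
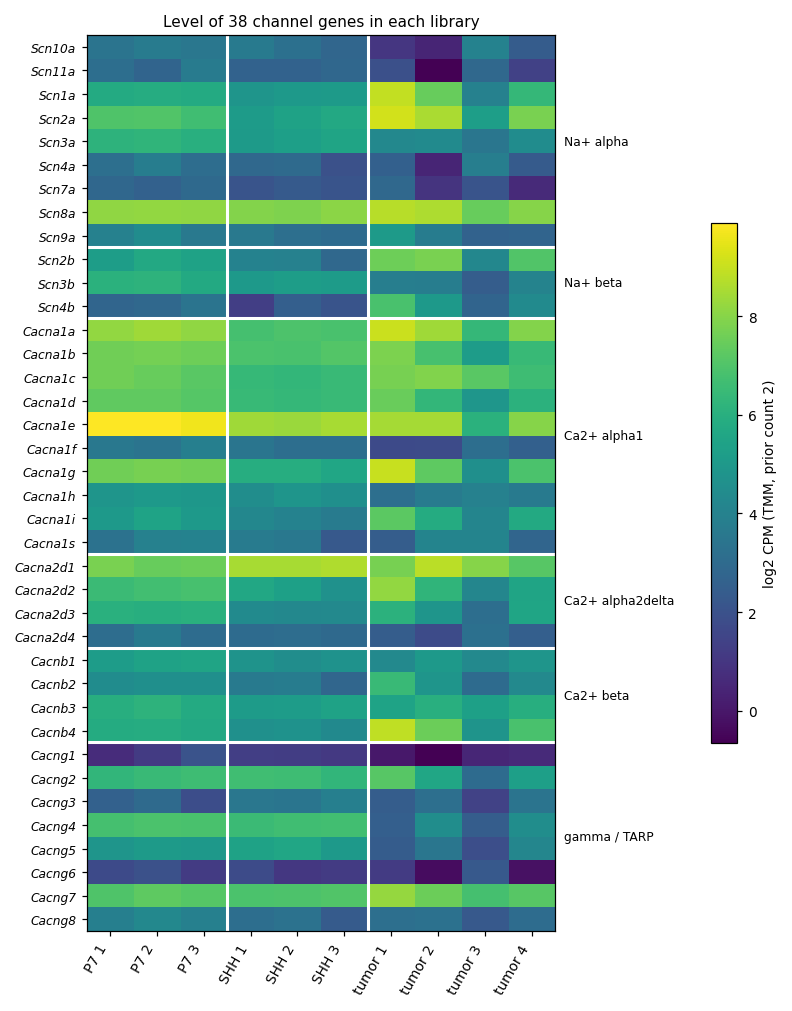
Level of 38 channel genes (rows, grouped by subunit family) in each of the 10 libraries (columns) on the log2 CPM scale (prior count 2). The 3 P7 and the 3 SHH MB columns look alike within their groups, whereas the 4 tumor columns differ: tumor 1 is bright in Scn1a, Cacna1g and Cacnb4, and tumor 3 is dark in most genes.

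The comparison of MYC/SMARCA4 tumors with P7 cerebella sets the tumors against tissue that contains their cells of origin. In this comparison, 6 of 40 channel genes were lower and 0 were higher (adjusted p of at most 0.05). Among all genes tested, 2.27% were lower and 3.99% higher by the same rule. The 6 genes were Scn3a, Scn3b, Cacna1e, Cacna1h, Cacng4 and Cacng5. At an unadjusted p under 0.05, 11 channel genes were lower and 7 higher, beside 9.97% and 15.3% of all genes. With DESeq2, 7 were lower (4.08% of all genes) and 5 were higher (9.29%), among them Scn2b, Scn4b and Cacnb4. When only these groups entered the edgeR fit, Scn3a, Scn3b and Cacng4 were lower (0.607% of all genes) and 0 were higher (0.206%). The median log2 fold change was -0.41 over channel genes and -0.05 over all genes tested. In 10 channel genes every tumor lay below every P7 cerebellum, and in 0 every tumor lay above (10.7% and 10.3% of all genes).

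The comparison of MYC/SMARCA4 tumors with SHH MB sets 2 MB models against each other. Here 7 of 40 channel genes were higher in the tumors and 5 were lower, beside 2.43% and 2.26% of all genes. The higher genes included Scn2b, Scn4b, Scn2a, Cacna1i and Cacnb4. Lower were Scn3a, Scn3b, Cacna1h, Cacng4 and Cacng5. At an unadjusted p under 0.05, 12 were higher and 5 lower, beside 12.7% and 7.1% of all genes. DESeq2 called 12 higher (7.87% of all genes) and 5 lower (4.09%). With only these groups in the edgeR fit, 1 channel gene was higher (0.337% of all genes) and Cacng4 was lower (1.15%). The median log2 fold change was 0.06 over channel genes and 0.01 over all genes. Groups did not overlap for 6 higher and 7 lower channel genes (7.83% and 8.30% of all genes). Both comparisons use the same 4 tumors, so their results are not independent.

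Between SHH MB and P7 cerebella, 0 of 40 channel genes passed the test in either direction when all 10 libraries shared an estimate of the spread with edgeR (0.0467% of all genes were lower and 0.177% higher), and DESeq2 called 0 as well (0.669% and 1.72%). At an unadjusted p under 0.05, 14 channel genes were lower and 2 higher, beside 3.64% and 5.16% of all genes. The fitted difference was negative for 36 of 40, with a median log2 fold change of -0.75 beside -0.09 over all genes. In 27 channel genes every SHH MB lay below every P7 cerebellum, and in 2 every SHH MB lay above (19.0% and 17.8% of all genes). When only these 2 groups entered the fit, 22 of 40 channel genes were lower in SHH MB and 3 were higher, beside 10.3% and 13.4% of all genes. The SD of log2 CPM over replicates had a median of 0.18 across channel genes in P7 cerebella and in SHH MB, and of 1.13 in the tumors (0.26, 0.26 and 0.81 across all genes).

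**Figure D2:**
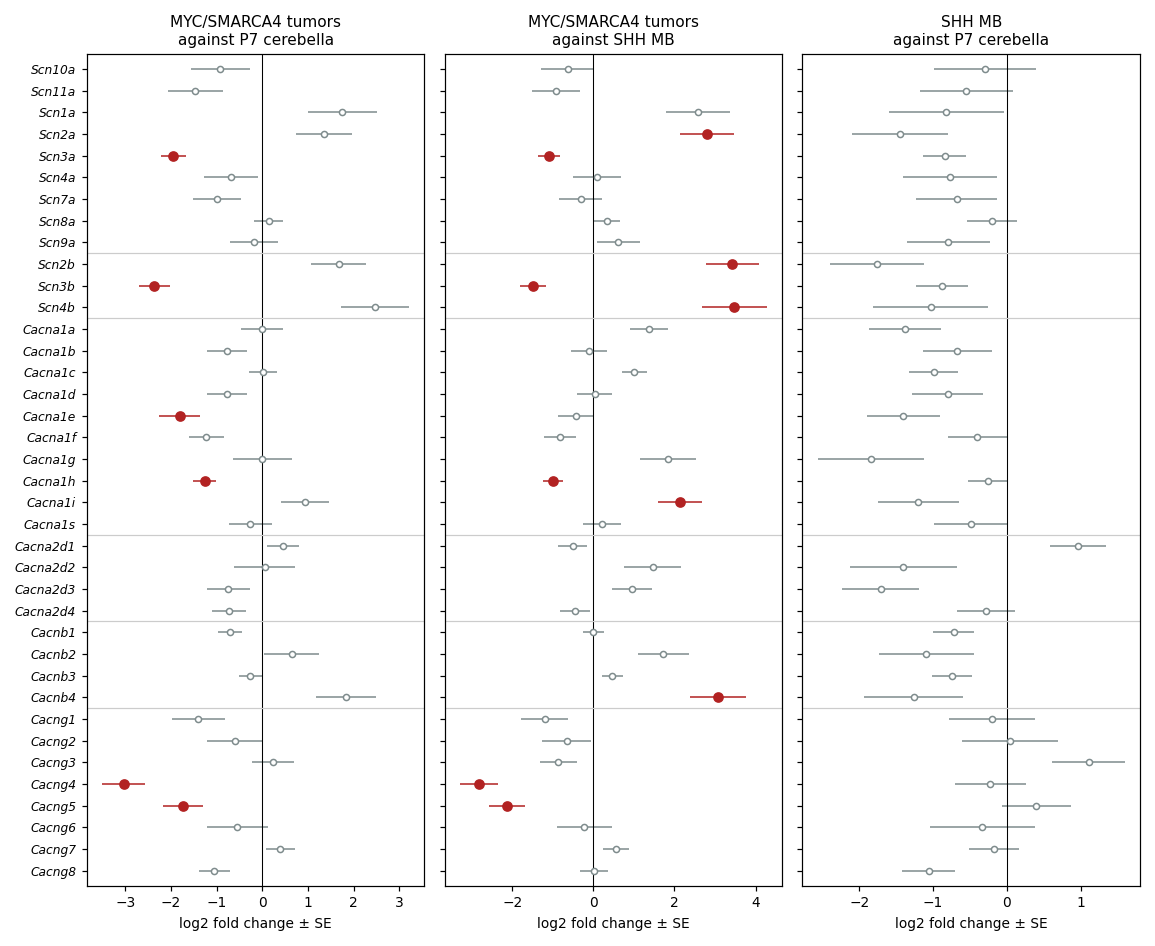
Log2 fold change with SE (horizontal axis) of each of 38 channel genes (vertical axis, grouped by family) in the 3 comparisons, from the edgeR fit of all 10 libraries. Filled red points mark an adjusted p of at most 0.05: 6 lower genes in tumors against P7 cerebella, 5 higher and 5 lower in tumors against SHH MB, and 0 in SHH MB against P7 cerebella, where 34 of 38 points lie left of 0.

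Among the sodium channel alpha subunits, the immature-type Scn3a was lower in the tumors in both comparisons. This gene lies on chromosome 2 (65287462 to 65397971, minus strand, GRCm39). Its level was 70.4, 76.0 and 63.8 CPM in P7 cerebella and 33.6, 38.6 and 44.7 CPM in SHH MB. In tumors 1 to 4 it was 18.8, 20.7, 10.9 and 22.2 CPM. The 3 groups did not overlap, and the tumors varied 2.03-fold among themselves. Scn3a fell 3.86-fold against P7 cerebella (log2 fold change -1.95 ± 0.27, adjusted p = 0.00317) and 2.15-fold against SHH MB (-1.10 ± 0.27, adjusted p = 0.0369).

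Scn2a, the main sodium channel of unmyelinated axons and early axon initial segments, is the neighbour of Scn3a on the opposite strand, 53.1 kb away. It was at 575, 378, 37.5 and 217 CPM in tumors 1 to 4, at 125, 129 and 99.4 CPM in P7 cerebella and at 35, 42.3 and 52.4 CPM in SHH MB. Tumors 1, 2 and 4 lay above all other libraries, whereas tumor 3 lay within the range of SHH MB. Scn2a was 6.97-fold higher in tumors than in SHH MB (log2 fold change 2.8 ± 0.66, adjusted p = 0.0307), and its difference from P7 cerebella did not pass the test (1.35 ± 0.62, adjusted p = 0.19). Without tumor 3, Scn2a was higher than in P7 cerebella as well (1.53 ± 0.30, adjusted p = 0.00591), beside 11.8% of all genes.

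Scn8a, the channel of mature initial segments and nodes of Ranvier, had the highest level per exon length of all sodium channel alpha subunits in P7 cerebella and SHH MB. In tumors 1, 2 and 4 Scn2a lay above it (44.1, 29.0 and 16.7 against 27.1, 24.7 and 15.9 CPM per kb), and in tumor 3 below it (2.88 against 10.9 CPM per kb). Its level was 277, 288 and 282 CPM in P7 cerebella, 244, 229 and 267 CPM in SHH MB, and 428, 390, 172 and 251 CPM in the tumors. P7 cerebella lay within the range of the tumors, and the differences between groups did not pass the test (adjusted p = 0.796 against P7 cerebella and 0.611 against SHH MB). Scn1a, the main channel of inhibitory neurons, had the widest spread of all channel genes, from 15.3 CPM in tumor 3 to 484 CPM in tumor 1, a 31.7-fold range.

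Sodium channel alpha subunits known from other tissues were low. Scn4a of skeletal muscle, Scn7a of glia, and Scn9a, Scn10a and Scn11a of peripheral sensory neurons stayed at or below 33.2 CPM in every library, and with all 10 libraries in the fit none of them passed the test. Without tumor 3, Scn10a, Scn11a and Scn4a were lower in tumors than in P7 cerebella (log2 fold change -2.21, -2.41 and -1.63 in place of -0.92, -1.47 and -0.68, adjusted p = 0.00831, 0.00804 and 0.0261), and Scn10a and Scn11a were lower than in SHH MB (-1.91 and -1.84, adjusted p = 0.0177 and 0.0279). That fit called 22.8% of all genes lower against P7 cerebella and 13.9% lower against SHH MB. Without tumor 1, Scn7a was lower than in P7 cerebella (-1.57, adjusted p = 0.0291), beside 5.0% of all genes. With only SHH MB and P7 cerebella in the fit, Scn9a was lower in SHH MB (-0.78 ± 0.23, adjusted p = 0.0121). Scn10a, Scn11a and Scn4a were at 1.08, 0.36 and 1.08 CPM in tumor 2 and at 15.8, 7.14 and 14.3 CPM in tumor 3. Of all libraries, tumors 1 and 2 also had the fewest genes with a count (36933 and 34735, against 42327 to 45490 in the others), and the part of this difference in the low channel genes was not tested.

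Within the family, levels per exon length gave the composition of sodium channel alpha transcripts. Scn8a made up 40.4% ± 1.73 (SD, n = 3) of the summed level per kb in P7 cerebella, 53.2% ± 2.13 (n = 3) in SHH MB and 31.3% ± 5.99 (n = 4) in tumors. Scn3a made up 11.8% ± 0.44 in P7 cerebella, 9.89% ± 0.982 in SHH MB and 2.37% ± 1.06 in tumors. The share of Scn2a was 20.4% ± 2.02, 11.3% ± 1.75 and 30.3% ± 14.1. In tumors 1, 2 and 4 Scn2a took 36.6%, 38.1% and 37.2%, but in tumor 3 it took 9.16%.

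Ratios within a library do not depend on its size factor. The log2 ratio of Scn8a to Scn3a counts was 1.98, 1.92 and 2.14 in P7 cerebella, 2.86, 2.56 and 2.58 in SHH MB, and 4.50, 4.23, 3.97 and 3.50 in tumors 1 to 4. The groups did not overlap. The mean difference between tumors and P7 cerebella was 2.03 (two-sided exact permutation test, p = 0.057) and between tumors and SHH MB 1.38 (exact p = 0.057), in both cases the smallest p that 4 against 3 libraries allow. Between SHH MB and P7 cerebella it was 0.65 (exact p = 0.1, the smallest that 3 against 3 allow). The log2 ratio of Scn8a to Scn2a was 1.27 ± 0.20 (SD) in P7 cerebella, 2.53 ± 0.24 in SHH MB and -0.42, 0.05, 2.19 and 0.21 in the tumors. Tumors were below SHH MB by a mean of 2.02 (exact p = 0.057), and the difference from P7 cerebella was -0.76 (exact p = 0.29). Adjusted over the 9 tests of ratios, no p fell below 0.15, and with these group sizes none could pass 0.05.

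**Figure D3:**
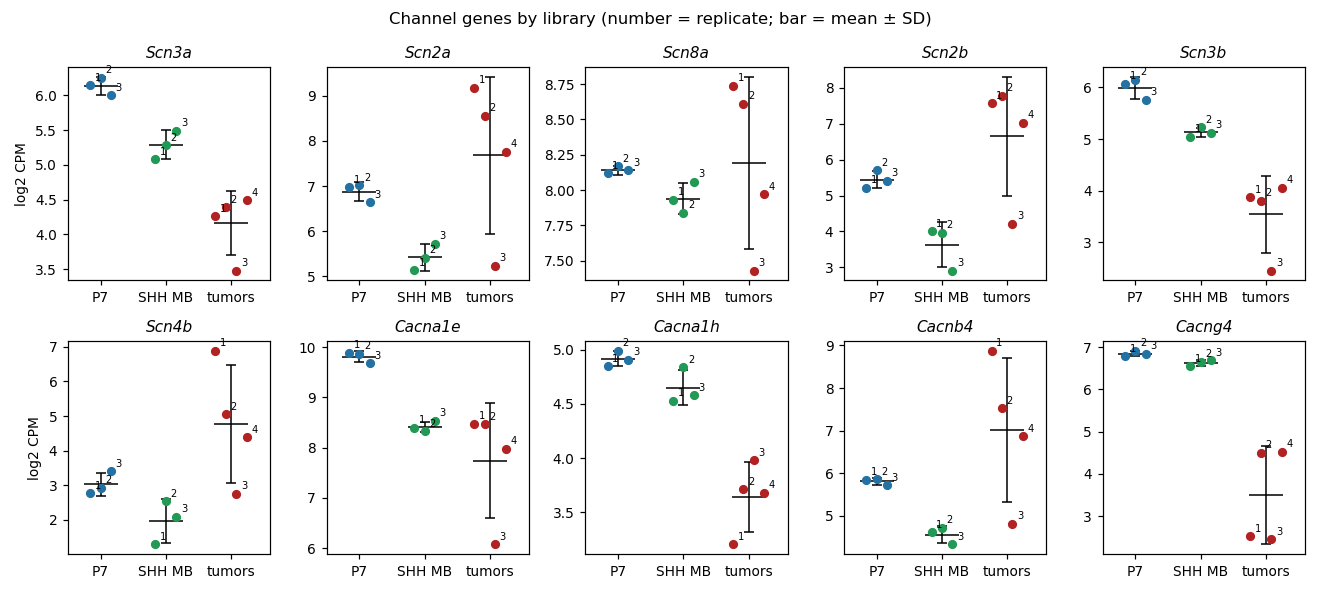
Log2 CPM (vertical axis) of 10 channel genes in P7 cerebella, SHH MB and MYC/SMARCA4 tumors. Points are libraries numbered by replicate, and bars give mean ± SD. Scn3a, Scn3b, Cacna1h and Cacng4 were lower in all 4 tumors than in any other library, whereas Scn2a, Scn2b, Scn4b and Cacnb4 spread over several log2 units, with tumor 3 lowest of the tumors in each.

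Among the sodium channel beta subunits, Scn2b and Scn4b were higher in tumors than in SHH MB. These genes, whose proteins form disulfide bonds with the alpha subunit, lie 8.2 kb apart on the plus strand of chromosome 9 (45029080 to 45041368 and 45049595 to 45065452). Scn2b was at 189, 219, 18.3 and 130 CPM in tumors 1 to 4, at 36.9, 51.7 and 42.2 CPM in P7 cerebella and at 15.9, 15.4 and 7.24 CPM in SHH MB. Scn4b was at 118, 32.8, 6.44 and 20.7 CPM in the tumors, at 6.54, 7.31 and 10.3 CPM in P7 cerebella and at 2.18, 5.54 and 3.98 CPM in SHH MB. In both genes each tumor exceeded each SHH MB, and tumor 3 lay below the lowest P7 cerebellum. Against SHH MB, Scn2b was 10.8-fold higher (log2 fold change 3.43 ± 0.66, adjusted p = 0.0125) and Scn4b 11.2-fold higher (3.48 ± 0.80, adjusted p = 0.028). Against P7 cerebella neither passed the test (Scn2b 1.67 ± 0.60, adjusted p = 0.111, and Scn4b 2.46 ± 0.75, adjusted p = 0.0703), and without tumor 3 both were higher (adjusted p = 0.00416 and 0.00761). Without tumor 1, the log2 fold change of Scn4b was 1.33 against P7 cerebella and 2.32 against SHH MB, and the latter still passed the test (adjusted p = 0.0126). The fit without tumor 3 called 11.8% of all genes higher against P7 cerebella, and that without tumor 1 called 5.91% higher against SHH MB.

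Sequence before the start of the neighbouring Scn2b and Scn4b is shown because these genes differed alike from SHH MB. The 250 bases before the annotated start (RefSeq, GRCm38.p6, plus strand) were read at chr9:45117626-45117875 for Scn2b and at chr9:45138374-45138623 for Scn4b. Capitals would mark matches to the 4 motifs searched, and both windows hold 0.
Scn2b: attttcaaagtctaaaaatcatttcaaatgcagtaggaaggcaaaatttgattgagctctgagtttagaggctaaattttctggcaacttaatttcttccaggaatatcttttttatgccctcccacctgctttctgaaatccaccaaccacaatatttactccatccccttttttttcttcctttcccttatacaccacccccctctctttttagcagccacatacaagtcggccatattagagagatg
Scn4b: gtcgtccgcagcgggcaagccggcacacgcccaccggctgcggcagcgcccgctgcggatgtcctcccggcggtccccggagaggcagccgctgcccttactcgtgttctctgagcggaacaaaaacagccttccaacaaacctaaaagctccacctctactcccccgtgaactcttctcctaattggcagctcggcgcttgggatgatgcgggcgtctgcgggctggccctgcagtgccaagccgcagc
The windows differ in composition. Scn2b has 38.4% G and C with 1 CpG, and Scn4b has 66.0% with 23 CpG, beside a median of 52.4% G and C over 32851 windows of the same table and 56.8% over the 41 windows of channel genes.

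The motifs searched on both strands, in windows of 250 bases before to 50 after the start, were the E-box CACGTG, at which MYC is known to bind, the left part of the RE1 element TTCAGCACC, at which the neuronal repressor REST is known to bind, the TATA box TATAAA and the GC box GGGCGG. The table held windows for 30 of the 40 channel genes. Scn3a, Scn3b and Cacng4 were among those without a window, so they were not searched. The E-box was found in 0 of 41 windows and in 7.15% of all windows, and the RE1 part in 0 of 41 and in 0.37%. The RE1 part is so rare that 0 of 41 windows cannot set channel genes apart from other genes. The TATA box was found in 2 windows, those of Scn2a and Cacna1d, and in 13.62% of all windows. The GC box was found in 16 windows of 15 genes and in 35.66% of all windows.

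Scn3b, the beta subunit of immature neurons, moved against Scn2b and Scn4b. It lies on chromosome 9 (40179378 to 40203052, plus strand). Its level was 67.1, 70.6 and 53.9 CPM in P7 cerebella, 32.7, 37.2 and 34.5 CPM in SHH MB, and 14.4, 13.7, 5.18 and 16.3 CPM in the tumors. The 3 groups did not overlap. Scn3b fell 5.16-fold against P7 cerebella (log2 fold change -2.37 ± 0.34, adjusted p = 0.00319) and 2.81-fold against SHH MB (-1.49 ± 0.33, adjusted p = 0.0246). Per exon length it made up 25.9% ± 4.06 of the family in P7 cerebella and 41.3% ± 5.01 in SHH MB, where it was the leading beta subunit, but 2.75% ± 2.10 in tumors.

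Among the calcium channel alpha1 subunits, Cacna1e, the pore of R-type channels, had the highest level per exon length in P7 cerebella and SHH MB. Its level was 947, 928 and 820 CPM in P7 cerebella, 335, 320 and 369 CPM in SHH MB, and 354, 352, 66.7 and 251 CPM in the tumors. P7 cerebella lay above all other libraries, whereas tumors 1 and 2 lay within the range of SHH MB. Cacna1e was 3.51-fold lower in tumors than in P7 cerebella (log2 fold change -1.81 ± 0.45, adjusted p = 0.0346), and its difference from SHH MB did not pass the test (-0.42 ± 0.44, adjusted p = 0.647). With only SHH MB and P7 cerebella in the fit it was 2.59-fold lower in SHH MB (-1.37 ± 0.12, adjusted p = 1.31e-09). Its share of the family was 30.0% ± 1.23 in P7 cerebella, 25.2% ± 1.60 in SHH MB and 12.9% ± 4.13 in tumors.

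T-type channels, which open near the resting potential, comprise Cacna1g, Cacna1h and Cacna1i, and these differed in direction. Cacna1h was at 28.6, 31.4 and 29.8 CPM in P7 cerebella, at 22.9, 28.3 and 23.7 CPM in SHH MB, and at 8.92, 12.8, 15.5 and 12.6 CPM in tumors. All tumors lay below all other libraries, and Cacna1h varied least of all channel genes between tumors (SD of log2 CPM 0.32). It was 2.39-fold lower than in P7 cerebella (log2 fold change -1.26 ± 0.25, adjusted p = 0.016) and 2.00-fold lower than in SHH MB (-1.0 ± 0.25, adjusted p = 0.0408). Cacna1i was at 149, 57.0, 17.6 and 53.7 CPM in tumors 1 to 4, at 32.8, 44.4 and 31.5 CPM in P7 cerebella and at 18.7, 15.9 and 12.9 CPM in SHH MB. Cacna1i was 4.37-fold higher in tumors than in SHH MB (2.13 ± 0.54, adjusted p = 0.0434), although tumor 3 lay within the range of SHH MB. Its log2 fold change was 1.42 without tumor 1 (adjusted p = 0.0284), beside 5.91% of all genes called higher. Cacna1g, which is strong in Purkinje cells, ranged from 23.8 CPM in tumor 3 to 508 CPM in tumor 1 and passed the test in neither tumor comparison (adjusted p = 1.0 against P7 cerebella and 0.162 against SHH MB).

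Of the other alpha1 subunits, none passed the test in a comparison of the tumors with all 10 libraries in the fit. Cacna1a, the P/Q-type pore of Purkinje and granule cell synapses, was at 532, 334, 81.6 and 247 CPM in tumors 1 to 4, between 280 and 334 CPM in P7 cerebella and between 110 and 122 CPM in SHH MB. Without tumor 3, Cacna1a, Cacna1c and Cacna1g were higher in tumors than in SHH MB, and Cacna1f was lower in both comparisons (log2 fold change -1.77 against P7 cerebella and -1.35 against SHH MB, adjusted p = 0.0058 and 0.0188). In that fit 9.57% of all genes were higher and 13.9% lower than in SHH MB, and 22.8% were lower than in P7 cerebella. Without tumor 1, Cacna1b and Cacna1d were lower than in P7 cerebella (-1.30 and -1.34, adjusted p = 0.0199 and 0.0115), beside 5.0% of all genes. Tumor 3 stood apart in the L-type subunit Cacna1c, which is abundant in heart and smooth muscle: its share of the alpha1 family was 23.9% there, 6.21%, 12.8% and 7.30% in tumors 1, 2 and 4, and 6.52% ± 0.705 in P7 cerebella. The level of Cacna1c itself was 146 CPM in tumor 3, within the range of the other tumors (97.7 to 237 CPM). Markers of pericytes and smooth muscle summed to 149 CPM in tumor 3 and to between 146 and 343 CPM in the other tumors; their part in the Cacna1c share was not tested. Cacna1f of the retina and Cacna1s of skeletal muscle stayed at or below 16.7 CPM in every library.

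In SHH MB, 8 of 10 alpha1 subunits lay below P7 cerebella in every library, beside 19.0% of all genes. With only these groups in the fit (10.3% of all genes were lower), Cacna1a, Cacna1b, Cacna1c, Cacna1d, Cacna1e, Cacna1g and Cacna1i were lower, by between 1.57-fold for Cacna1b and 3.52-fold for Cacna1g (adjusted p = 1.53e-11 for Cacna1g). Summed, alpha1 subunits were at 2010 ± 131 CPM (SD) in P7 cerebella, at 869 ± 24.3 CPM in SHH MB, and at 2170, 1360, 442 and 949 CPM in tumors 1 to 4.

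No alpha2delta subunit, the target of gabapentinoid drugs in the case of Cacna2d1 and Cacna2d2, passed the test in a comparison of the tumors with all 10 libraries in the fit. Without tumor 3, Cacna2d2 and Cacna2d3 were higher than in SHH MB (log2 fold change 1.57 and 1.11, adjusted p = 0.0459 and 0.0111) and Cacna2d4 was lower than in P7 cerebella (-1.24, adjusted p = 0.0147). In that fit 9.57% of all genes were higher than in SHH MB and 22.8% lower than in P7 cerebella. Cacna2d1 was at 217, 171 and 186 CPM in P7 cerebella, at 359, 370 and 392 CPM in SHH MB, and at 213, 446, 250 and 140 CPM in tumors. All SHH MB lay above all P7 cerebella, and the tumors spread across both groups. Of the 40 channel genes it was among only 2, with Cacng3, for which every SHH MB exceeded every P7 cerebellum. With these groups alone in the fit, Cacna2d1 was 1.99-fold higher in SHH MB (log2 fold change 0.99 ± 0.12, adjusted p = 3.42e-07), while Cacna2d2 and Cacna2d3 were lower (-1.38 ± 0.16 and -1.69 ± 0.14, adjusted p = 2.57e-07 and 4.69e-10). Cacna2d1 thus made up 69.0% ± 5.73 of the family level per kb in SHH MB and 29.9% ± 3.58 in P7 cerebella, where Cacna2d2, a subunit of Purkinje cells, led with 44.8% ± 3.67. Tumors 2 and 3 were led by Cacna2d1 with 61.2% and 73.6%, and tumor 1 by Cacna2d2 with 68.1%.

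Of the calcium channel beta subunits, Cacnb4 passed the test. It was at 466, 185, 27.8 and 116 CPM in tumors 1 to 4, at 57.3, 57.9 and 52.5 CPM in P7 cerebella, and at 24.3, 26.0 and 19.9 CPM in SHH MB. Each tumor exceeded each SHH MB, and tumor 3 lay below P7 cerebella. Cacnb4 was 8.48-fold higher in tumors than in SHH MB (log2 fold change 3.08 ± 0.69, adjusted p = 0.0248), and its difference from P7 cerebella was 1.83 ± 0.65 (adjusted p = 0.106), or 1.97 ± 0.37 without tumor 3 (adjusted p = 0.0054). Without tumor 1, the log2 fold change of Cacnb4 was 2.22 against SHH MB (adjusted p = 0.0114) and 0.99 against P7 cerebella. The fit without tumor 3 called 11.8% of all genes higher against P7 cerebella, and that without tumor 1 called 5.91% higher against SHH MB. Cacnb3, a broadly expressed beta subunit, was at 61.5, 72.2 and 54.8 CPM in P7 cerebella, at 34.8, 35.6 and 42.5 CPM in SHH MB, and at 43.6, 63.5, 40.2 and 61.4 CPM in tumors, with adjusted p of 0.494 and 0.329 for the tumors against P7 cerebella and SHH MB. Cacnb1 of skeletal muscle stayed between 19.4 and 44.8 CPM and passed in neither tumor comparison. Cacnb2, known from heart, ranged from 7.98 CPM in tumor 3 to 89.7 CPM in tumor 1, and in the other groups from 6.82 to 24.1 CPM. Without tumor 3 it was higher in tumors than in SHH MB (log2 fold change 1.83, adjusted p = 0.0174), beside 9.57% of all genes.

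The log2 ratio of Cacnb4 to Cacnb3 counts was 3.41, 1.54, -0.53 and 0.92 in tumors 1 to 4, -0.16 ± 0.14 (SD) in P7 cerebella and -0.69 ± 0.35 in SHH MB. Tumors 1, 2 and 4 lay above all other libraries and tumor 3 lay among SHH MB. The difference did not pass the test against P7 cerebella (1.5, two-sided exact permutation test, p = 0.23) or SHH MB (2.03, exact p = 0.17), and the smallest possible p was 0.057.

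Members of the gamma family fell in the tumors where they passed the test. Cacng4, a TARP (γ-4) that is prominent in the immature brain, lies on chromosome 11 (107623183 to 107685662, minus strand), between Cacng1 and Cacng5. Cacng4 was at 110, 120 and 115 CPM in P7 cerebella, at 93.5, 100 and 103 CPM in SHH MB, and at 5.45, 22.3, 5.18 and 22.7 CPM in tumors. No tumor came near the lowest value of the other groups. It fell 8.21-fold against P7 cerebella (log2 fold change -3.04 ± 0.47, adjusted p = 0.00557) and 7.06-fold against SHH MB (-2.82 ± 0.47, adjusted p = 0.00554). Cacng4 was the only channel gene that passed the thresholds of the study's volcano plots (log2 fold change of at least 2.5 in size, adjusted p of at most 0.01) in both tumor comparisons (0.2% and 0.477% of all genes were lower by that rule). Against SHH MB, 1 channel gene and 0.124% of all genes were higher by it. Against P7 cerebella, 0 channel genes and 0.0901% of all genes were higher by it with edgeR. At an unadjusted p under 0.05, without a limit on the fold, 7 of 40 channel genes and 15.3% of all genes were higher.

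Its neighbour Cacng5, a TARP of atypical type (γ-5), was at 28.8, 33.4 and 30.8 CPM in P7 cerebella, at 42.0, 47.7 and 33.0 CPM in SHH MB, and at 4.96, 10.8, 3.36 and 17.8 CPM in tumors. All tumors lay below all other libraries. Cacng5 fell 3.32-fold against P7 cerebella (log2 fold change -1.73 ± 0.44, adjusted p = 0.0394) and 4.38-fold against SHH MB (-2.13 ± 0.45, adjusted p = 0.0187), and without tumor 4 the log2 fold changes were -2.34 and -2.73. Against P7 cerebella the call was lost without tumor 2 (edgeR, adjusted p = 0.0736) or any single SHH MB library (0.0727 to 0.0767). It held in 11 of 19 alternative fits against P7 cerebella and in 15 of 19 against SHH MB. Sequence before an annotated start of Cacng5, at chr11:107915056-107915305 on the minus strand (RefSeq, GRCm38.p6), is shown with its 2 GC boxes in capitals. Only a window of this gene with a GC box was to be shown, so the presence of the motif here is not a result. The table held no window for Cacng4.
Cacng5: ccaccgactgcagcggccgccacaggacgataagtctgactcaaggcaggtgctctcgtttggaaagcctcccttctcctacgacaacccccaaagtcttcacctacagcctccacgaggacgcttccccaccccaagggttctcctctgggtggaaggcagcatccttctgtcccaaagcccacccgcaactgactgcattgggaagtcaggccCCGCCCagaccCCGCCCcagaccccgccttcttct
Other members of the family did not pass the test in the comparisons of the tumors with all 10 libraries in the fit. Cacng2 (stargazin), the main TARP of cerebellar granule cells, was at 140, 48.1, 7.98 and 38.7 CPM in tumors 1 to 4 and between 78.4 and 100 CPM in the other groups. Tumors 2, 3 and 4 lay below every other library and tumor 1 above. Without tumor 1, Cacng2 was lower than in P7 cerebella (log2 fold change -1.48 in place of -0.61, adjusted p = 0.0422) and than in SHH MB (-1.55 in place of -0.66, adjusted p = 0.0492). The same fit called 5.0% of all genes lower against P7 cerebella and 3.86% lower against SHH MB. Without tumor 3, Cacng1, Cacng6 and Cacng8 were lower than in P7 cerebella (-1.68, -1.75 and -1.03, adjusted p = 0.041, 0.0275 and 0.0274), beside 22.8% of all genes. Cacng7, an atypical TARP (γ-7) of granule and Purkinje cells, was at 126, 154 and 138 CPM in P7 cerebella, at 119, 124 and 129 CPM in SHH MB, and at 295, 183, 109 and 143 CPM in tumors. The tumors overlapped both other groups (adjusted p = 0.44 and 0.366). Cacng7 made up 69.7% ± 7.31 of the family level per kb in tumors, 37.3% ± 0.97 in P7 cerebella and 35.6% ± 2.17 in SHH MB, and Cacng4 made up 5.54% ± 3.78, 29.6% ± 1.14 and 27.3% ± 1.73. Cacng1 and Cacng6, the gamma subunits of skeletal muscle, were near the detection limit: 3 counts correspond to 0.307 to 0.744 CPM, and these genes did not exceed 4.62 CPM in any library.

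**Figure D4:**
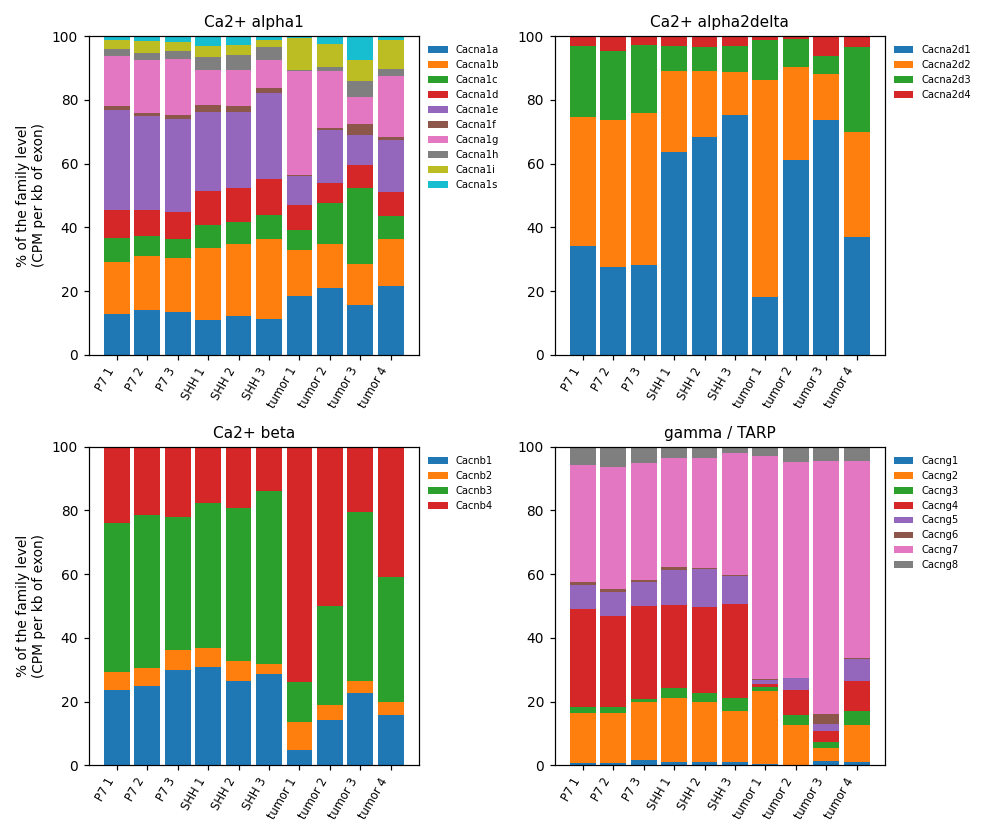
Share of each subunit (percent of the summed CPM per kb of exon, stacked to 100) within the 4 calcium channel families in each of the 10 libraries. In all 4 tumors the shares of Cacna1e and Cacng4 are below those in P7 cerebella and SHH MB and that of Cacng7 is above them, whereas tumor 3 differs from the other tumors by Cacna1c.

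Single tumors differed widely in channel genes. Tumor 3 had the lowest level of the 4 tumors in 27 of 40 channel genes (30.9% of all genes) and tumor 1 the highest in 19 of 40 (32.6% of all genes). Tumor 3 was highest in 8 and tumor 1 lowest in 4 (37.7% and 28.5% of all genes). Tumor 3 was lowest of the tumors in Scn2b, Scn3b and Scn4b, in all calcium channel beta subunits, and in 6 of 8 gamma subunits. The channel genes highest in tumor 3 included Scn10a, Scn11a, Scn4a, Cacna1f, Cacna1h, Cacna2d4 and Cacng6.

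Marker lists of mature cells followed the same order of tumors. All 10 mature granule neuron markers were highest in tumor 1 and lowest in tumor 3, and their summed level was 7700, 2970, 383 and 1590 CPM in tumors 1 to 4, 1140 ± 85.9 CPM (SD) in P7 cerebella and 790 ± 54.1 CPM in SHH MB. Gabra6, which defines mature granule neurons, was at 387, 175, 15.5 and 78.1 CPM in the tumors. Purkinje cell markers summed to 6020, 1290, 227 and 801 CPM in tumors 1 to 4, and 9 of 10 were highest in tumor 1. Interneuron markers summed to 3190, 815, 132 and 645 CPM, and markers of myelinating oligodendrocytes to 4040, 830, 118 and 449 CPM. Their sums in the other groups were at most 1090, 680 and 1140 CPM, respectively. Against SHH MB, 7 of 10 mature granule neuron markers were higher in tumors (2.43% of all genes), and 5 of 8 markers of immature granule neurons were lower (2.26% of all genes). Against P7 cerebella 5 of these 8 were lower as well (2.27% of all genes). Of the 10 mature granule neuron markers, 4 were higher in tumors than in P7 cerebella (3.99% of all genes). Summed immature markers ran from 600 to 1380 CPM in tumors, from 1960 to 2070 CPM in SHH MB and from 2790 to 3090 CPM in P7 cerebella. The part of these cell types in the channel genes was not tested.

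Other marker lists were summed as well. Endothelial markers were at 392, 173, 97.9 and 150 CPM in tumors 1 to 4, and all 8 were highest in tumor 1 and lowest in tumor 3. Microglial markers were at 219, 122, 57.8 and 154 CPM. Markers of astrocytes and Bergmann glia were at 1160, 3030, 618 and 2360 CPM, so here tumor 2 was highest. Markers of oligodendrocyte precursors (83.3 to 197 CPM) and of the choroid plexus (82.9 to 210 CPM) were lower in each tumor than in each library of the other groups (329 to 469 CPM and 393 to 1500 CPM). Of 10 skeletal muscle markers, 6 were highest in tumor 3 among the tumors, as was Scn4a. Ttn made up most of their sum of 183, 435, 211 and 84.2 CPM in tumors 1 to 4 (171 to 186 CPM in P7 cerebella), while Ckm and Acta1, which define muscle fibers, were at 2.1 and 4.06 CPM in tumor 3. Their part in the level of Scn4a was not tested. Photoreceptor markers summed to at most 46.1 CPM in any library, and 7 of 8 were highest in tumor 3 among the tumors, as was Cacna1f.

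**Figure D5:**
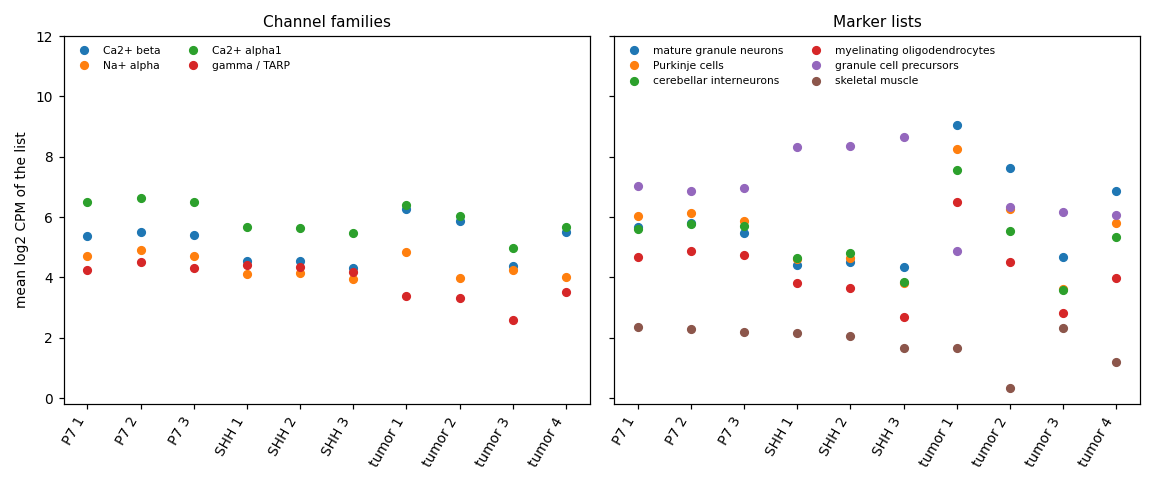
Mean log2 CPM (vertical axis) of 4 channel families (left) and of 6 marker lists (right) in each library, 1 point per list and library. Calcium channel beta subunits are at 6.28 in tumor 1 and at 4.37 in tumor 3, beside mature granule neuron markers at 9.04 and 4.69 and Purkinje cell markers at 8.26 and 3.63 in the same tumors.

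Calls depended on single libraries. Without tumor 3, 7 channel genes were higher and 14 lower against P7 cerebella (11.8% and 22.8% of all genes), and 13 were higher and 8 lower against SHH MB (9.57% and 13.9%). Without tumor 1, 1 channel gene was higher and 11 channel genes were lower against P7 cerebella (11.1% and 5.0% of all genes), and 7 were higher and 6 lower against SHH MB (5.91% and 3.86%). Between SHH MB and P7 cerebella, 7 channel genes were lower without tumor 3 (0.874% of all genes, with 0.665% higher), among them Cacna1a, Cacna1e, Cacna1g, Cacna2d3, Scn2a and Scn2b, and Cacna2d3 alone was lower without tumor 1 (0.867%, with 2.3% higher). When any SHH MB library was left out, 0 channel genes were higher in tumors than in SHH MB and Cacng4 alone was lower. Those fits called 0.166% to 0.188% of all genes higher and 0.789% to 0.969% lower, beside 2.43% and 2.26% with all libraries. When any P7 library was left out, Scn3a, Scn3b and Cacng4 were lower than in P7 cerebella and the calls of Cacna1e, Cacna1h and Cacng5 were lost. Those fits called 0.369% to 0.505% of all genes lower, beside 2.27% with all libraries. The calls of Cacna1e and Cacng5 were also lost without any SHH MB library (1.02% to 1.09% of all genes lower) or without tumor 2 (1.6%). That of Cacna1e was lost without tumor 4 (1.55%). Against SHH MB, the calls of Scn2a, Cacna1i and Cacna1h were lost without any P7 library, and those of Scn3a and Scn3b without P7 library 1 or 2. Fits without a P7 library called 0.985% to 1.17% of all genes higher and 1.37% to 1.67% lower than in SHH MB. Scn3a, Scn3b and Cacng4 were called lower against P7 cerebella in all 19 alternative fits.

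Genes whose proteins work with these channels were listed by name. Of 9 sodium channel partners, among them ankyrin G (Ank3) and the intracellular FGFs, 0 passed the test in any comparison with edgeR (in tumors 1 was higher and 1 lower than in P7 cerebella at an unadjusted p under 0.05, beside 15.3% and 9.97% of all genes, and 3 were higher than in SHH MB, beside 12.7%). Ank3, which anchors sodium channels in the initial segment, was at 119 CPM in tumor 3 and at 374 to 865 CPM in the other tumors, beside 1010 to 1120 CPM in P7 cerebella. Of 12 calcium channel regulators, only Cabp1, a neuronal calcium sensor, passed. Among all genes, 3.99% were higher than in P7 cerebella and 2.43% higher than in SHH MB. Cabp1 was at 108, 38.5, 10.6 and 24.2 CPM in tumors and between 6.11 and 9.83 CPM elsewhere, with log2 fold changes of 2.42 ± 0.62 over P7 cerebella (adjusted p = 0.0395) and 2.56 ± 0.63 over SHH MB (adjusted p = 0.0363).

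Of 15 genes of calcium stores and extrusion, Ryr3 and Itpr2 were lower in tumors than in P7 cerebella, beside 2.27% of all genes. Both release calcium from the endoplasmic reticulum. Ryr3 was at 43.1, 39.1, 31.2 and 28.3 CPM in tumors and between 73.1 and 92.7 CPM in P7 cerebella (log2 fold change -1.23 ± 0.24, adjusted p = 0.0142), and Itpr2 was at 15.9, 35.8, 26.6 and 41.6 CPM against 81.5 to 89.5 CPM (-1.5 ± 0.3, adjusted p = 0.0156). Itpr2 was lower than in SHH MB too (2.26% of all genes), while Itpr1 and Atp2a3, which are strong in Purkinje cells, were higher (2.43%). Itpr1 reached 7100, 2060, 289 and 1430 CPM in tumors 1 to 4 and lay between 217 and 653 CPM elsewhere (3.14 ± 0.81 over SHH MB, adjusted p = 0.0445), and tumor 3 lay within that range. Of 6 other auxiliaries of AMPA receptors, Gsg1l passed: it was at 275, 272 and 308 CPM in SHH MB, between 45.1 and 54.4 CPM in P7 cerebella and between 17.3 and 46.8 CPM in tumors. Gsg1l was higher in SHH MB than in P7 cerebella (log2 fold change 2.53 ± 0.35, adjusted p = 0.018) and lower in tumors than in SHH MB (-3.19 ± 0.32, adjusted p = 0.000185). The shares of all genes called so were 0.177% and 2.26%. Of the sodium leak channel complex, 3 of 5 genes were found by symbol, and Unc80 was higher in tumors than in SHH MB (2.48 ± 0.47, adjusted p = 0.0118), beside 2.43% of all genes.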

How the data were processed

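RNA was measured in 3 P7 cerebella, 3 SHH MB and 4 MYC/SMARCA4 tumors. The authors depleted ribosomal RNA, prepared CORALL libraries, trimmed single-end reads with Trimmomatic 0.38.1, aligned them to GRCm39 with STAR 2.7.8a and counted them per gene with featureCounts 2.0.1. The deposited counts are whole numbers without normalization. A deposited table of log2-scale values was made by the authors with the variance-stabilizing transformation of DESeq2 and served only in an alternative. Annotation release, strand setting and use of molecular identifiers are not given in the sources used here.

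Libraries were grouped by their labels, and each counted as 1 replicate. Counts of all 10 libraries were fitted together with edgeR 4.0.16 (quasi-likelihood test, TMM, filterByExpr by group, a mean per group) in R 4.3.3, and p-values were adjusted by the Benjamini-Hochberg method over 29952 genes. A gene was called at an adjusted p of at most 0.05. The common dispersion was 0.178. CPM were scaled by TMM factors (0.619 to 1.28), log2 CPM used a prior count of 2 and ratios a prior count of 0.5. A floor of 3 counts equals 0.307 to 0.744 CPM, which covers counting error only. Levels per kb used the exon length of each gene in GENCODE on GRCm39. On simulated tumors and P7 cerebella of 28165 genes, 177 of 200 genes simulated with a log2 change of 3 were recovered (88.5%), with 5 false calls. All simulated libraries had the same dispersion, whereas the real tumors spread more (median SD over all genes 0.81, against 0.26 in P7 cerebella and in SHH MB). The simulation therefore does not give the recovery or false calls for these tumors, nor the recovery of smaller changes. Alternatives were DESeq2 1.42.0, limma 3.58.1 on the deposited log2 values, RLE factors, other filters, robust estimation, library sizes without mitochondrial and rRNA-like genes, a replicate block, only the 2 groups compared, stricter thresholds and each library left out.

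Values in every library are given for channel genes called in any comparison, for the leading member of each family per exon length and for members of the ratios. Scn1a, Cacna1a, Cacna1c, Cacna1g, Cacng2 and the low muscle, sensory and retinal genes, as well as Ank3 and single marker genes, were named after their values were seen. Members, lists and tests were chosen with earlier results of these data known. The partner and marker lists are described by counts and summed levels. Protein sequences were not used here. Channel genes that are counted in the totals but not described are not reported here.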

Additional observations from a re-analysis of the deposited data

Results flagged for a closer look

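Of 40 channel genes tested in the 4 tumors, Scn3b had 1 tumor far from the others. Its level in tumor 3 was 2.45 on the log2 CPM scale, and the other tumors lay between 3.80 and 4.05. The gap was 0.843 of the whole range, above Dixon's critical value for 4 samples. Chance flags about 1 in 20 groups. Scn3b was lower than in both other groups without tumor 3 as well (log2 fold change -2.27 ± 0.22 and -1.38 ± 0.21, adjusted p of edgeR 0.000404 and 0.00201). That fit called 22.8% of all genes lower against P7 cerebella and 13.9% lower against SHH MB.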

How the results depend on the processing

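Counts of calls among the 40 channel genes depended on the setting, and no setting reversed a direction of a call. Percentages beside these counts are shares of all genes tested in the same fit. For tumors against P7 cerebella (0 higher, 6 lower, beside 3.99% and 2.27%), DESeq2 gave 5 higher (9.29%). No filter on low counts gave 2 higher (2.22%), the volcano-plot thresholds 1 lower (0.2%), and a fit of only the 2 groups 3 lower (0.607%). For tumors against SHH MB (7 higher, 5 lower, beside 2.43% and 2.26%), DESeq2 gave 12 higher (7.87%). Limma on the deposited log2 values gave 2 higher (0.692%) and 3 lower (1.21%), and no filter gave 3 lower (1.31%). The volcano-plot thresholds gave 1 higher (0.124%) and 1 lower (0.477%), and only the 2 groups 1 higher (0.337%) and 1 lower (1.15%). For SHH MB against P7 cerebella (0 and 0, beside 0.177% and 0.0467%), only the 2 groups gave 3 higher (13.4%) and 22 lower (10.3%). Leaving out a library gave 0 to 7 higher (0.1% to 11.8%) and 3 to 14 lower (0.369% to 22.8%) for tumors against P7 cerebella. For tumors against SHH MB it gave 0 to 13 higher (0.166% to 9.57%) and 1 to 8 lower (0.789% to 13.9%). For SHH MB against P7 cerebella it gave 0 higher (at most 2.3%) and 0 to 7 lower (at most 0.874%). The extremes came mostly without tumor 3 or an SHH MB library. The cause was not tested, beyond the smaller number of libraries or the pooled spread that these fits use.

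With the replicate number as a block, 0 channel genes were higher and 4 lower in tumors against P7 cerebella, beside 0.551% and 0.684% of all genes. Against SHH MB, 2 were higher and 3 lower, beside 0.771% and 1.34%. Between SHH MB and P7 cerebella 0 channel genes differed, beside 0.0534% of all genes higher and 0.01% lower. Deviations of same-numbered libraries correlated between -0.274 and 0.162, and those of differently numbered ones between -0.242 and 0.298. With so few libraries these values cannot tell whether same-numbered libraries share more than a number. RLE factors, robust estimation and library sizes without mitochondrial and rRNA-like genes changed no count of calls.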
